A study of Mus musculus with 32 samples.

Results

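The genes described here are the DNA methyltransferases Dnmt1, Dnmt3a and Dnmt3b, the cofactors Dnmt3l and Uhrf1, and the dioxygenases Tet1, Tet2 and Tet3. They were chosen by gene name, with earlier results of these data known. All 8 were found, each in a single row, among the 55492 rows of the deposited expression table. The table gives polyadenylated RNA levels in mouse embryonic stem cells and in the retinal organoids grown from them. All 8 genes passed the filter for testing, which asked for at least 1 FPKM (fragments mapped to a gene, scaled to transcript length and to the depth of the library) in at least 2 of the 32 libraries.

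Samples came from 4 kinds of culture at days 0, 2, 4 and 6, with 2 libraries in each of the 16 groups. WT is the Rx:GFP line, named for a green fluorescent reporter of Rx (Rax), a transcription factor gene of the eye field. KO is the line labelled Mettl3 KO. The METTL3 protein is the catalytic part of the complex that methylates adenosine in RNA at N6, a mark called m6A. The remaining cultures are Mettl3 KO cells that overexpress the wild-type METTL3 protein fused to GRBD, so they carry the knockout too. They were kept without dexamethasone (no Dex) or with it (Dex, 10 µM), and the series' design calls the fusion cytosolic without Dex and moved into the nucleus with it. Day 0 samples are stem cells, and the organoids of days 2, 4 and 6 in all 4 kinds of culture grew in medium with AGN at 0.1 µM. The labels do not say how many clones the lines represent or whether the 2 libraries of a group came from separate cultures. They state separate rounds of library preparation, so p-values measure the spread between libraries, which may be technical. A Dex treatment is labelled for some day 0 samples, while the protocol text mentions Dex only at 2, 4 and 6 days, and the labels were followed.

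DNA methylation in mammals sits mainly on cytosines followed by guanine (CpG). Dnmt3a and Dnmt3b place new methyl groups, and Dnmt3l, which lacks catalytic activity, stimulates them. Dnmt1 copies the pattern after DNA replication, and Uhrf1 brings Dnmt1 to newly replicated, hemimethylated sites. The Tet enzymes oxidise methylated cytosine, which opens routes back to the unmethylated base. In stem cells leaving the naive state, Dnmt3b and Dnmt3a are known to rise as the genome gains methylation, while Tet3 is known as the main Tet transcript of many neural cells. Methylation of DNA and methylation of RNA were not measured in these samples, and every value below is an RNA level.

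The KO line is labelled as lacking the writer of m6A, a mark whose common sequence context on mRNA includes GGACT. The number of such motifs per kilobase was counted in 1 coding transcript of each gene (GENCODE M21 on GRCm38). Dnmt3a had the highest density with 1.55 per kilobase, and Uhrf1 followed with 1.39. Tet2 had 1.0, Dnmt3b 0.93, Tet1 0.9 and Tet3 0.84. Dnmt1 with 0.56 and Dnmt3l with 0.55 were lowest. Across 13588 tested genes with a coding transcript the median was 1.06, with quartiles of 0.63 and 1.55, and 90.8% held at least 1 GGACT. Dnmt1 and Dnmt3l thus lay below the lower quartile and the other 6 genes between the quartiles or at the upper one. Each gene's motif nearest to the stop codon is given here within 29 bases of its transcript, since m6A is known to be enriched near stop codons. Capitals mark the motif.
Dnmt1: ggctgctaccaaGGACTagtgctctcacc
Dnmt3a: cctgcccgcaagGGACTttatgagggtac
Dnmt3b: tagttctacccaGGACTggggagctctcg
Dnmt3l: ttctcacggagtGGACTgctgcagaggcg
Uhrf1: caacgtctgtaaGGACTgtctggacaggt
Tet1: aggaagaggaagGGACTgtaaataagaac
Tet2: gatgtccttgtaGGACTataatgtataga
Tet3: gaaagccagtggGGACTgttcactggtga
The last base of the Dnmt1 motif is the first of the stop codon, and the Dnmt3b motif lies in the 3′ UTR, starting 12 bases after the first base of the stop codon. Those of Dnmt3a, Dnmt3l, Uhrf1 and Tet3 are in the coding sequence, and those of Tet1 and Tet2 in the 3′ UTR. The Tet3 transcript read here had 5944 bases, 5412 of them coding, while the longest annotated Tet3 transcript has 10904. Tet3 motifs outside the shorter transcript were thus not counted. The Dnmt3l motif is the only one in its transcript. A match is a sequence description and does not show that the site carries m6A.

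Promoters were read from RefSeq (GRCm38.p6) as the 250 bases before each annotated start, which gave 15 windows for the 8 genes. Shown are Dnmt3b and Dnmt3l, the pair with the widest range of RNA levels here, and Uhrf1, whose window holds a motif of replication genes. In the first pair capitals mark CpG, and in Uhrf1 they mark a match to an E2F motif, E2F being the transcription factor family of S phase genes.
Dnmt3b, chr2:153649199-153649448, plus strand: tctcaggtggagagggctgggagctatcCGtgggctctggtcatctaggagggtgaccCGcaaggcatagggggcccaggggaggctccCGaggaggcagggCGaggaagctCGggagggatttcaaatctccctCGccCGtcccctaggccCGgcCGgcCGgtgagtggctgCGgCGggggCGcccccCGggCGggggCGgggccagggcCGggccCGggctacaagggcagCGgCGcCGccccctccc
Dnmt3l, chr10:78042037-78042286, plus strand: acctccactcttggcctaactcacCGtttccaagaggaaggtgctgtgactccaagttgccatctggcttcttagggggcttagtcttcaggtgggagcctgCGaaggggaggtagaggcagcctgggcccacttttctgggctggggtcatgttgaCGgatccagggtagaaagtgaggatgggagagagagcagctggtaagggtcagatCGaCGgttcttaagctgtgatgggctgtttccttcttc
Uhrf1, chr17:56304063-56304312, plus strand: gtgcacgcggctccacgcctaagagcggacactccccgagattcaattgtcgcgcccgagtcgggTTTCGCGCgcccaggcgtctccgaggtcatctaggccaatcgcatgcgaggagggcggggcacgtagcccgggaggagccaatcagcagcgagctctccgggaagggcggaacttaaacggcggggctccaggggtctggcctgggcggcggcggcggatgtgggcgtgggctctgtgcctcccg
Dnmt3b held 21 CpG in its window, more than 83.7% of the 32851 promoter windows of that length, whose median was 6. The 3 Dnmt3l starts held 5, 4 and 3. An E2F motif (TTTCCCGC, TTTCGCGC, TTTGCCGC or TTTGGCGC, on either strand) was found in 2 of the 15 windows, the second Uhrf1 start shown and the third Dnmt1 start, against 1.86% of all windows. The palindrome bound by the glucocorticoid receptor, AGAACA in inverted repeat with 3 free bases between, was in 0 of the 15 and in 0.00913% of all windows. A single AGAACA, on either strand, was in 1 of the 15, the third Dnmt1 start, and in 16.1% of all.

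Libraries held an estimated 27.8 M to 53.4 M fragments, with a median of 36.7 M. The lowest value of each gene rested on between 180 fragments for Dnmt3l and 11000 for Uhrf1, counted as if all came from the longest transcript. The Mettl3 row does not check the knockout: KO libraries had 43.83 and 42.88 FPKM at day 0 against 36.8 and 33.15 in WT, and a level for the whole gene cannot show a small deletion. Pou5f1, a pluripotency factor, lay between 867.66 and 1078.71 FPKM in the day 0 libraries. Rax reached 121.5 and 114.84 FPKM at day 6 in WT, 53.89 and 55.52 with Dex, and under 1.1 in KO and no Dex organoids of that day. At day 4 it was at 1.2 and 1.21 FPKM in KO and 6.51 and 6.43 in no Dex organoids. The no Dex libraries at day 0 stand apart in composition, with median-of-ratios scaling factors of 0.877 and 0.879 and the highest summed FPKM, 1065393 and 1064199. The WT duplicates at day 0 differed most, by 17.35 times counting noise in squared differences, against 2.05 to 5.27 in the other groups. The fit used below shares 1 spread per gene over all 16 groups, so its SE and p-values do not carry this wider spread. Over the alternative fits the highest adjusted p (limma) for KO against WT at day 0 was 0.0258 for Dnmt1 and 0.0257 for Dnmt3b.

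Dnmt1 and Uhrf1, the maintenance pair, were the steadiest of the 8. Group means of Dnmt1 spanned 1.85-fold and those of Uhrf1 2-fold. At the other end Dnmt3b spanned 42.8-fold and Dnmt3l 83.8-fold. Tet1, Tet2 and Tet3 spanned 17.6-fold, 23.1-fold and 16.8-fold, and Dnmt3a 5.97-fold. WT held the highest group mean of every gene but Tet3, whose highest was KO at day 6.

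**Figure D1:**
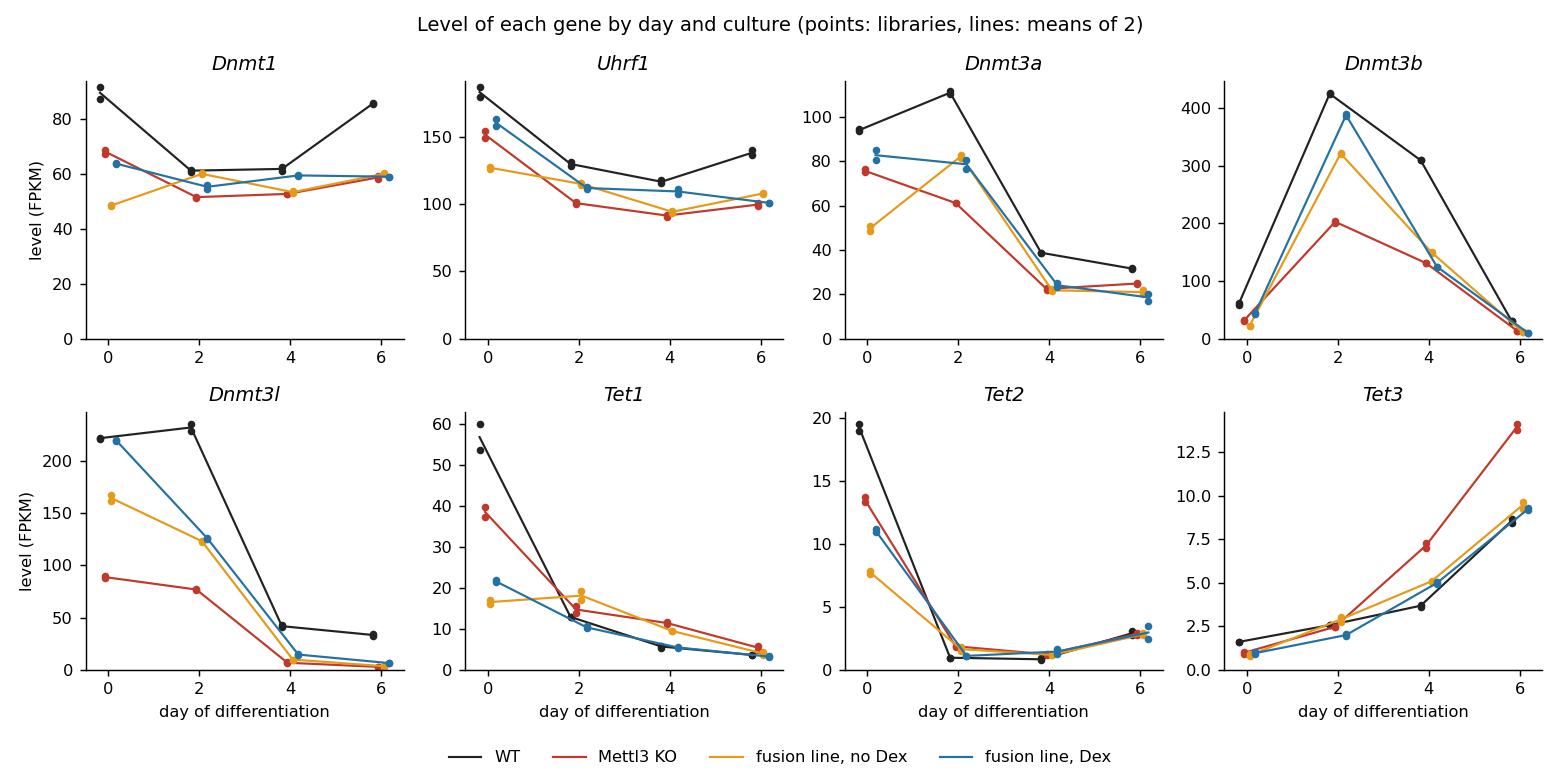
FPKM of each of the 8 genes against day of differentiation, points being the libraries and lines the means of 2 in WT, KO and the fusion line without and with Dex. Dnmt3b peaks at day 2 in all 4 cultures, Dnmt3l, Tet1 and Tet2 are low by day 6, and Tet3 climbs to its highest level at day 6.

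Dnmt1, the maintenance methyltransferase, stood in WT at 87.27 and 91.45 FPKM at day 0, 61.42 and 60.68 on day 2, 61.03 and 62.33 on day 4, and 85.72 and 85.13 on day 6. In KO it stood at 67.13 and 68.7, 51.29 and 51.57, 52.68 and 52.52, and 58.1 and 59.1 on the same days. KO libraries lay below WT libraries on every day, with no overlap. The KO minus WT difference was −0.39 ± 0.02 (SE) on the log2(FPKM + 1) scale at day 0 (limma, adjusted p = 4.33e-11) and −0.54 ± 0.02 at day 6 (adjusted p = 3.86e-14). WT Dnmt1 rose between days 4 and 6 by 0.46 ± 0.02 and KO by 0.15 ± 0.02. Without Dex the libraries gave 48.03 and 48.65, 59.66 and 60.11, 52.89 and 53.6, and 60.11 and 59.66 FPKM. With Dex they gave 63.48 and 63.67, 56 and 54.35, 59.54 and 59.11, and 58.87 and 58.84. At day 6 all 3 cultures with the knockout thus lay between 58.1 and 60.11 FPKM, below both WT libraries.

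Uhrf1, which recruits Dnmt1, had in WT 179.64 and 186.52 FPKM at day 0, 131.14 and 128.29 on day 2, 115.34 and 117.69 on day 4, and 140.18 and 136.13 on day 6. KO had 153.88 and 149.15, 101.51 and 99.77, 92.1 and 90.68, and 98.56 and 100.57. It was lower in KO on every day, by 0.27 to 0.47 on the log2 scale. No Dex libraries had 127.53 and 126.17, 114.07 and 115.63, 95.03 and 93.37, and 108.28 and 107.45 FPKM, and Dex libraries 163.07 and 157.66, 112.36 and 111.34, 107.74 and 110.87, and 100.81 and 100.89. The ratio of Uhrf1 to Dnmt1 in FPKM stayed between 1.6 and 2.66 over all 32 libraries. Over the 16 group means their levels correlated at Pearson r = 0.73, which describes means that share libraries and depth. Of 10 markers of dividing cells, a list of replication and mitosis genes, 9 were lower in KO at day 6 and 1 was higher. Over all tested genes 34.2% were lower and 30.9% higher on that day. The summed FPKM of these markers at day 6 ran from 1517 to 1524.6 in WT and from 1162.7 to 1169.2 in KO. At day 0 the sums overlapped, at 1627.8 to 1693 in WT and 1623.6 to 1639.8 in KO. On that day Dnmt1 and Uhrf1 were lower in KO. The part of cell division in the Dnmt1 and Uhrf1 differences was not tested. In bulk samples, fewer cells of a type and less RNA per cell cannot be told apart, here or for any gene below.

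Dnmt3b, the de novo enzyme of early embryonic cells, peaked at day 2 in all 4 cultures. WT had 59.15 and 60.98 FPKM at day 0, 425.84 and 423.29 on day 2, 308.89 and 309.63 on day 4, and 29.95 and 31.34 on day 6. KO had 32.41 and 31.08, 204.07 and 201.13, 130.56 and 131.23, and 13.75 and 13.66. The KO thus rose and fell too, at levels 1.89-fold lower on day 0, 2.1-fold on day 2, 2.36-fold on day 4 and 2.24-fold on day 6. The difference was −0.9 at day 0 (limma, adjusted p = 4.59e-15), −1.06 on day 2, −1.23 on day 4 and −1.11 on day 6 (adjusted p = 7.86e-18), each ± 0.03. No Dex libraries had 21.82 and 22.66, 320.66 and 321.18, 149.73 and 149.26, and 11.62 and 11.34 FPKM. Dex libraries had 43.15 and 44.86, 389.11 and 385.82, 124.13 and 124.99, and 9.95 and 9.91. By day 2 Dnmt3b had risen from day 0 by 7.07-fold in WT, 6.38-fold in KO, 14.4-fold in no Dex and 8.81-fold in Dex cultures. Between days 4 and 6 it fell 10.1-fold, 9.55-fold, 13-fold and 12.5-fold in the same order. An antisense transcript at the locus, Dnmt3bos, reached at most 2.49 FPKM, and since strandedness is not stated its reads cannot be told apart from those of Dnmt3b.

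Dnmt3l, the catalytically inactive stimulator, showed the largest KO difference of the 8 genes on each of the 4 days. WT had 222.11 and 221.48 FPKM at day 0, 235.08 and 229.04 on day 2, 42.69 and 40.88 on day 4, and 34.74 and 31.91 on day 6. KO had 88.07 and 89.35, 77.37 and 76.33, 6.52 and 7.04, and 2.95 and 2.59. KO levels were 2.5-fold lower at day 0, 3.02-fold on day 2, 6.16-fold on day 4 and 12-fold on day 6. On the log2 scale the differences were −1.31, −1.58, −2.46 and −3.19, each ± 0.06 (limma, adjusted p = 4.21e-19 at day 6). The gap widened between days 0 and 6 by 1.87 ± 0.08, a test of the difference itself (interaction, limma, adjusted p = 6.95e-13). Without Dex the libraries had 161.84 and 167.4, 123.6 and 122.69, 9.8 and 9.82, and 3.74 and 3.12 FPKM. With Dex they had 218.79 and 220.19, 126.4 and 125.41, 15.41 and 13.76, and 6.61 and 6.18. Dex cultures thus started close to WT, with a difference of −0.02 ± 0.06 (limma, adjusted p = 0.875), and by day 6 stood 5.21-fold below it. Over the 6 days Dnmt3l fell 6.66-fold in WT, 32-fold in KO, 48-fold in no Dex and 34.3-fold in Dex cultures.

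Markers of extraembryonic endoderm, an early yolk sac lineage, were lower in KO than in WT, as Dnmt3l was. Of 7 markers, 6 were lower in KO at day 0 and all 7 at days 2, 4 and 6. Over all tested genes 29.8%, 21.3%, 24% and 34.2% were lower on these 4 days. The summed FPKM of the markers at day 6 was 69.7 to 70 in WT and 11.8 in both KO libraries. At day 0 it was 21.3 to 22.6 in WT and 7.4 to 7.5 with Dex. Sox17 was at 20.92 and 20.05 FPKM in WT at day 6 and at 0.29 and 0.07 in KO, and Afp was listed at 0 in both KO libraries at days 0 and 6. The endoderm marker sum in KO went from between 4 and 4.3 FPKM at day 0 to 11.8 at day 6. Pluripotency markers also differed at day 6, with 7 of 8 lower and 1 higher in KO. Pou5f1 was at 37.64 and 38.2 FPKM in WT and at 12.37 and 11.08 in KO, and the 8 markers summed to between 308 and 310.9 in WT and 241.6 and 244.2 in KO. The part of extraembryonic endoderm or pluripotent cells in the Dnmt3l result was not tested. The Aire gene overlaps Dnmt3l on the opposite strand. It peaked at day 2 in every culture, at 24 to 28.88 FPKM. At day 6 Aire was at 7.91 and 6.33 FPKM in WT and 0.69 and 0.91 in KO, and without known strandedness reads of the pair cannot be told apart.

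Dnmt3a, the other de novo enzyme, had in WT 93.54 and 94.6 FPKM at day 0, 110.44 and 111.5 on day 2, 38.79 and 38.72 on day 4, and 31.21 and 32 on day 6. KO had 76.37 and 75.13, 61.27 and 61.09, 22.91 and 21.95, and 24.79 and 24.97. It was lower in KO on all 4 days, most at day 2 with −0.85 ± 0.05 (limma, adjusted p = 4.05e-11). Between days 0 and 2 it rose in WT by 0.24 ± 0.05 and fell in KO by 0.3 ± 0.05, and these changes differed by −0.54 ± 0.07 (interaction, limma, adjusted p = 4.6e-06). No Dex libraries had 48.69 and 50.89, 82.91 and 81.7, 21.37 and 22.26, and 21.76 and 20.24 FPKM, and Dex libraries 80.66 and 84.89, 80.56 and 76.75, 24.92 and 23.24, and 20.01 and 17.17. Without Dex it rose between days 0 and 2 by 0.71 ± 0.05, and with Dex the difference of −0.07 ± 0.05 missed the threshold (limma, adjusted p = 0.23). All 4 cultures fell between days 2 and 4, by 1.41 to 1.87 on the log2 scale.

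Tet1, the main Tet gene of stem cells, had in WT 59.92 and 53.48 FPKM at day 0, 12.8 and 12.96 on day 2, 5.43 and 5.9 on day 4, and 3.67 and 3.53 on day 6. KO had 37.3 and 39.63, 15.48 and 13.9, 11.69 and 11.1, and 4.91 and 5.89. The order of the cultures turned over: KO was lower at day 0 by 0.55 ± 0.08 (limma, adjusted p = 9.35e-06) and higher at day 4 by 0.9 ± 0.08 (adjusted p = 6.15e-09). At day 6 it was higher by 0.47 ± 0.08, and the day 6 difference exceeded that of day 0 by 1.02 ± 0.11 (interaction, limma, adjusted p = 1.75e-07). Without Dex the libraries had 15.94 and 17.06, 17.02 and 19.12, 9.34 and 9.53, and 3.66 and 4.25 FPKM. With Dex they had 21.76 and 21.32, 10.56 and 10.07, 5.23 and 5.64, and 3.11 and 3.33. Tet1 fell between days 0 and 2 in WT, KO and Dex cultures. Without Dex the day 2 and day 0 libraries overlapped and the difference of 0.12 ± 0.08 missed the threshold (limma, adjusted p = 0.172), and turned to −0.06 after rescaling. Over the 6 days Tet1 fell 15.8-fold in WT, 7.12-fold in KO, 4.17-fold in no Dex and 6.69-fold in Dex cultures. The unclassified transcript Gm48353 on the same strand, at most 4.42 FPKM, overlaps Tet1, so levels of a few FPKM at the late days are uncertain.

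Tet2 was high in stem cells and low afterwards. WT had 19.02 and 19.56 FPKM at day 0, 0.96 in both libraries on day 2, 0.91 and 0.76 on day 4, and 2.74 and 3.07 on day 6. KO had 13.35 and 13.76, 1.92 and 1.83, 1.28 and 1.18, and 2.79 and 2.95. KO was below WT at day 0 and above it at day 2, and the libraries overlapped at day 6. In the first step to day 2 Tet2 fell 20.1-fold in WT, 7.23-fold in KO, 4.73-fold in no Dex and 10-fold in Dex cultures. No Dex libraries had 7.9 and 7.62, 1.8 and 1.48, 1.2 and 1.17, and 2.9 and 2.73 FPKM, and Dex libraries 11.22 and 10.95, 1.11 and 1.1, 1.22 and 1.69, and 2.45 and 3.48. By day 6 the 4 group means lay between 2.82 and 2.96 FPKM, and each neighbouring pair overlapped.

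Tet3, the Tet gene of later stages, rose at each step in all 4 cultures. WT had 1.59 and 1.61 FPKM at day 0, 2.57 and 2.56 on day 2, 3.73 and 3.63 on day 4, and 8.42 and 8.68 on day 6. KO had 0.93 and 1.03, 2.46 and 2.48, 7.3 and 6.99, and 14.13 and 13.79. KO began below WT, by 0.39 ± 0.05 (limma, adjusted p = 7.34e-07), and ended above it, by 0.65 ± 0.05 (adjusted p = 1.87e-10), and the differences on these days differed by 1.04 ± 0.06 (interaction, limma, adjusted p = 6.44e-11). Without Dex the libraries had 0.78 and 0.88, 2.75 and 3.03, 5.1 and 5.07, and 9.66 and 9.25 FPKM. With Dex they had 0.9 and 1.01, 2.06 and 1.93, 4.95 and 5.03, and 9.17 and 9.29. Fusion cultures at day 6 thus lay between WT and KO, with no overlap with either. Over the 6 days Tet3 rose 5.34-fold in WT, 14.2-fold in KO, 11.4-fold in no Dex and 9.66-fold in Dex cultures. At day 6 all 6 neuronal markers on a list were higher in KO than in WT, where 30.9% of all genes were higher. All 6 were lower with Dex than without, where 19% of all genes were lower. Tet3 with Dex, at 9.17 and 9.29 FPKM on that day, overlapped the no Dex libraries. The summed FPKM of these markers was already between 337.2 and 340.7 in WT stem cells at day 0, so the sum does not measure neurons alone. At day 6 it was between 47.3 and 49.7 in WT and between 311.2 and 315.4 in KO. The part of neurons in the Tet3 level was not tested.

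Shares within each family describe these shifts on the per-length FPKM scale. Of the summed FPKM of the catalytic Dnmt1, Dnmt3a and Dnmt3b, Dnmt3b made up 24.7% in WT on day 0, 71.2% on day 2, 75.5% on day 4 and 20.7% on day 6. In KO its share was 18.1%, 64.3%, 63.6% and 14.1%. Dnmt1 made up the largest share at day 6 in every culture, from 57.8% in WT to 67.4% with Dex. Among the Tet genes, Tet1 gave 73% of the summed FPKM in WT stem cells and 23.9% at day 6, while Tet3 went from 2.07% to 56.8%. KO went from 1.85% to 62.8% for Tet3, no Dex from 3.31% to 58.3%, and Dex from 2.85% to 60%. The switch from Tet1 to Tet3 was thus present in all 4 cultures, with Tet3 over Tet1 ratios between 2.18 and 2.95 in the 8 libraries of day 6 and between 0.0249 and 0.0516 in those of day 0.

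**Figure D2:**
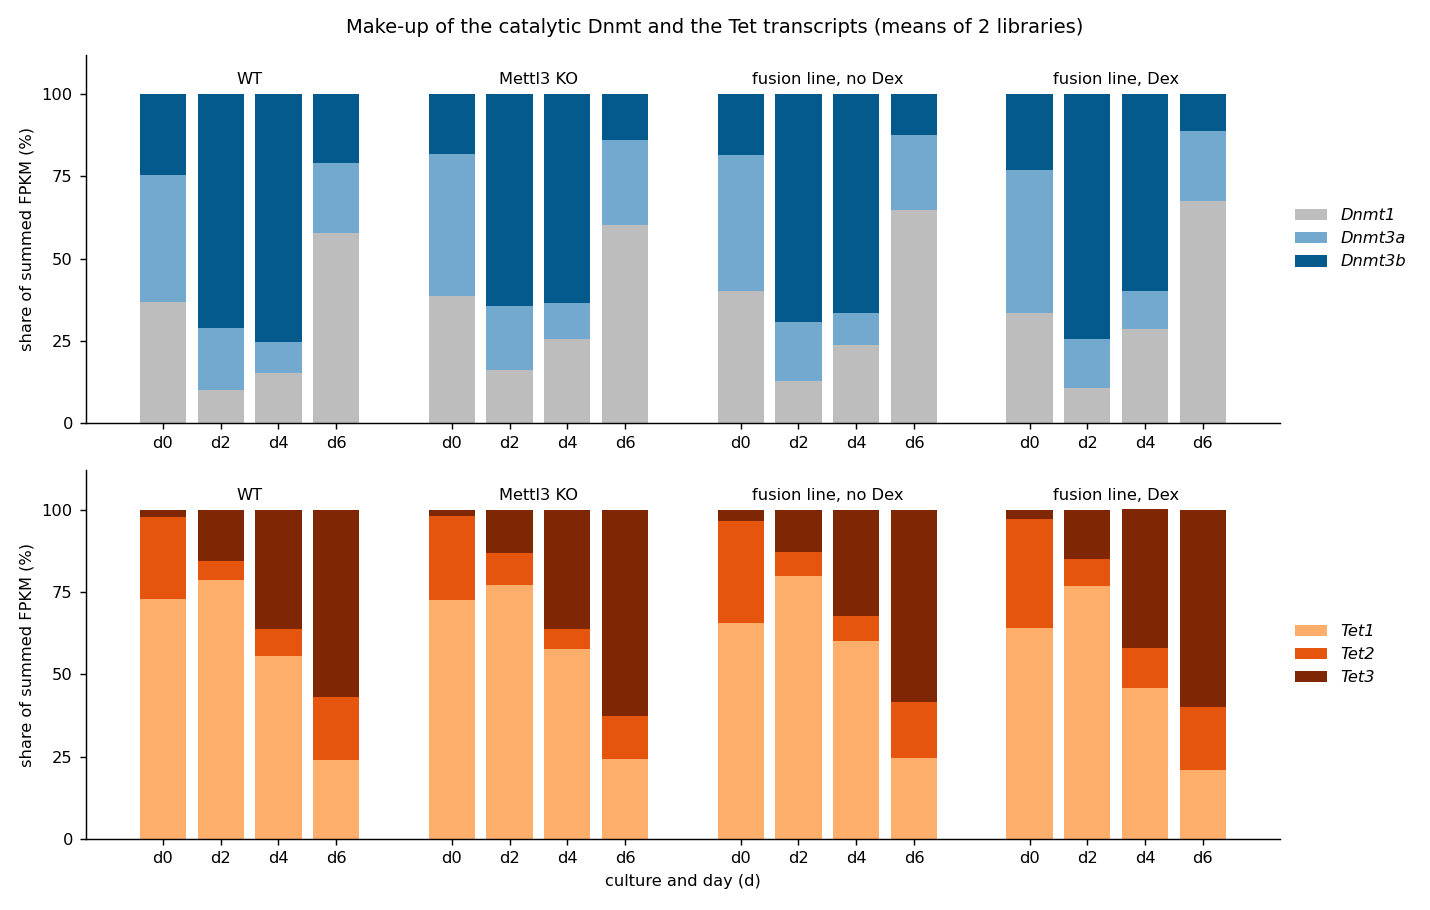
Stacked bars give the share in percent of each gene in the summed FPKM of the catalytic Dnmt genes (upper panel) and of the Tet genes (lower panel) by culture and day, as means of 2 libraries. Dnmt3b takes most of the Dnmt sum at days 2 and 4 and Dnmt1 at day 6, and Tet3 replaces Tet1 as the main Tet transcript by day 6 in each culture.

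KO was compared with WT, the Rx:GFP line. The number of clones is not stated, so loss of Mettl3 and other differences between the lines cannot be told apart. All 8 genes were called lower in KO at day 0 (limma, adjusted p under 0.05 over 16276 genes), where 48.2% of all tested genes were called, 18.4% higher and 29.8% lower. At day 2, 5 were lower and 1, Tet2, was higher, with 58.9% of all genes called, 37.5% higher and 21.3% lower. Tet1 missed the threshold there with 0.18 ± 0.08 (adjusted p = 0.0604) and Tet3 with −0.04 ± 0.05 (adjusted p = 0.489). Tet1 passed there without KO replicate 2, with 0.25 (adjusted p = 0.0326), and Tet3 after rescaling, with −0.13 (adjusted p = 0.0252). At day 4, 5 were lower and the 3 Tet genes higher, with 60.5% of all genes called, 36.5% higher and 24% lower. At day 6, 5 were lower, Tet1 and Tet3 were higher, and Tet2 missed the threshold with −0.01 ± 0.1 (adjusted p = 0.933), with 65.1% of all genes called, 30.9% higher and 34.2% lower. The 5 lower ones at days 2, 4 and 6 were the Dnmt genes and Uhrf1. The median difference of the 8 was −0.44, −0.3, −0.29 and −0.4 on the 4 days, against −0.04, 0.09, 0.06 and −0.03 over all tested genes. Among all calls the share that was higher in KO was 63.8% at day 2 and 50.6% after rescaling, and 60.3% and 49.7% at day 4. With the day 4 call of Tet2, 0.28 ± 0.1, the value was 0.22 without WT replicate 2 (adjusted p = 0.121) and 0.25 without KO replicate 1 (adjusted p = 0.087).

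**Figure D3:**
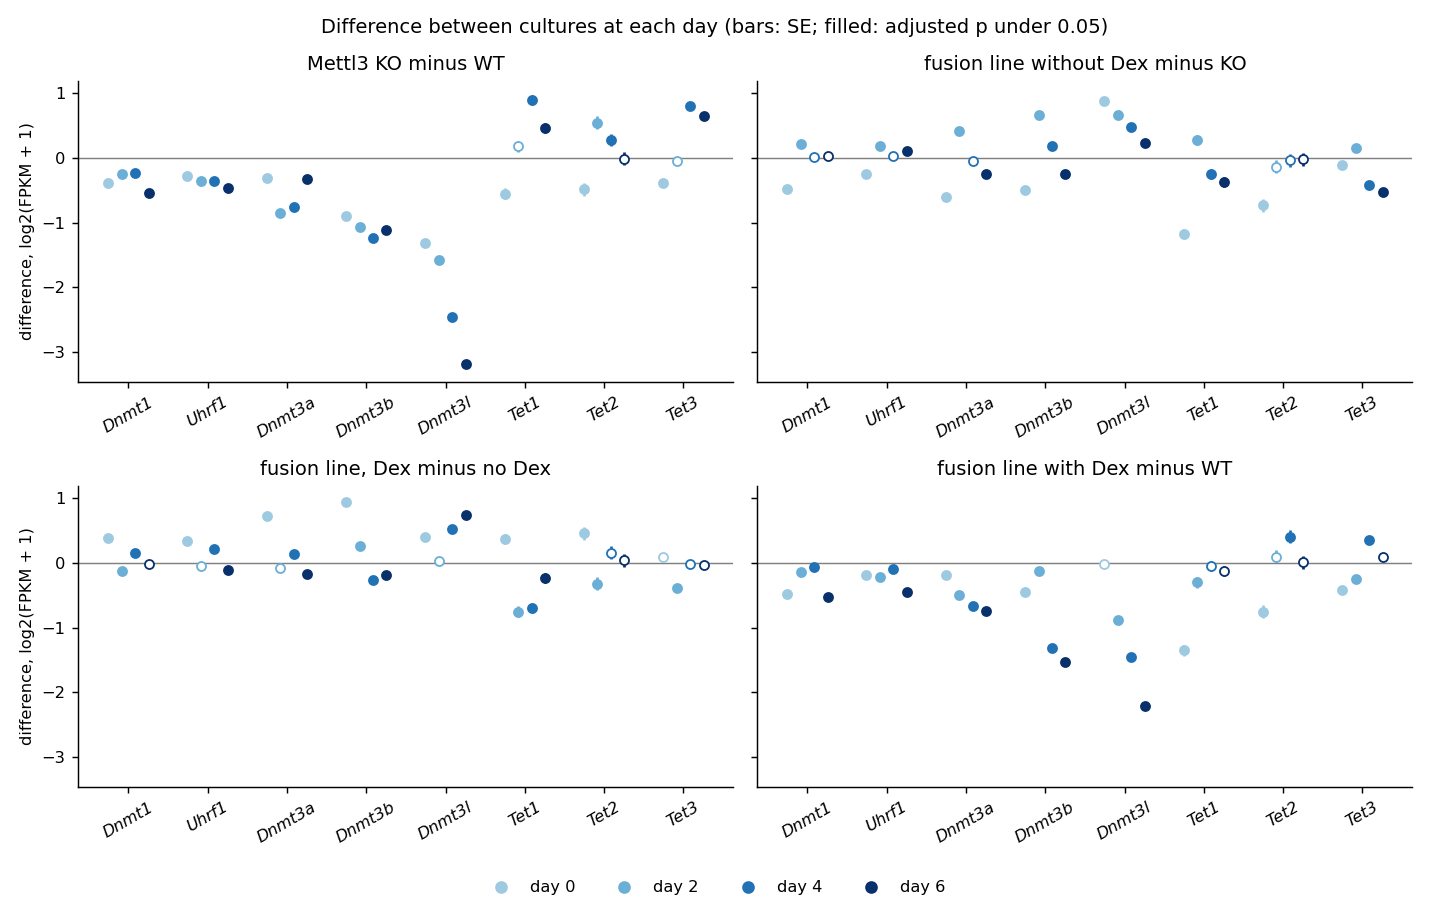
Differences on the log2(FPKM + 1) scale for each gene at days 0, 2, 4 and 6 in the 4 comparisons of cultures, with SE bars, filled where the adjusted p is under 0.05. KO minus WT is below 0 for the 4 Dnmt genes and Uhrf1 on all days, down to −3.19 for Dnmt3l, while Tet1, Tet2 and Tet3 lie above 0 at day 4.

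The fusion line without Dex was set against KO, a comparison that shares the KO libraries with the one above. At day 0, 7 genes were lower and Dnmt3l was higher, by 0.88 ± 0.06 (limma, adjusted p = 4.29e-10), with 49.1% of all genes called, 19.3% higher and 29.8% lower. Tet1 was the most reduced, by 1.17 ± 0.08 (adjusted p = 3.3e-10), or 2.33-fold. The day 0 libraries without Dex are those that stand apart, and after rescaling 6 genes were lower and 1 higher, as Tet3 lost its call with −0.05 (adjusted p = 0.367). Its value was −0.08 without KO replicate 2 and −0.07 without no Dex replicate 1 (adjusted p = 0.286 and 0.304). Among all calls 39.3% were higher and 57.3% after rescaling. At day 2, 7 were higher and none lower, where 37% of all genes were called, 14.8% higher and 22.2% lower. Dnmt3b was 1.58-fold and Dnmt3l 1.6-fold above KO, and Tet2 missed the threshold with −0.13 ± 0.1 (limma, adjusted p = 0.336). Without KO replicate 2 Tet1 lost its call with 0.21 (adjusted p = 0.108), as it did without no Dex replicate 2 with 0.2 (adjusted p = 0.113). Tet3 lost its call with 0.11 without no Dex replicate 2 (adjusted p = 0.125).

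At day 4, 4 genes passed in the fusion line without Dex against KO, with 26.7% of all genes called, 9.66% higher and 17% lower. Dnmt3l and Dnmt3b were higher by 0.48 ± 0.06 and 0.19 ± 0.03, and Tet3 was lower by 0.42 ± 0.05 (limma, adjusted p = 1.74e-06). Tet1 was lower by 0.25 ± 0.08, and its call was lost with values of −0.21 without KO replicate 1, −0.23 without no Dex replicate 1 and −0.26 without no Dex replicate 2 (adjusted p = 0.143, 0.106 and 0.0736). Among all calls 36.3% were higher, and 51.9% after rescaling. Rescaling left 4 members called higher and 1 lower. Dnmt1 then passed with 0.06 and Uhrf1 with 0.09 (limma, adjusted p = 0.0455 and 0.00919), and Tet1 lost its call with −0.21 (adjusted p = 0.0538). At day 6, 6 genes passed, with 49% of all genes called, 21.1% higher and 27.9% lower. Tet3 was lower by 0.52 ± 0.05, or 1.48-fold (limma, adjusted p = 1.39e-08), and Tet1, Dnmt3a and Dnmt3b were lower by 0.24 to 0.37. Uhrf1 was higher by 0.11 ± 0.02. Dnmt3l was higher by 0.23 ± 0.06, a call lost without KO replicate 2 with 0.16 (adjusted p = 0.071) and without no Dex replicate 1 with 0.13 (adjusted p = 0.105).

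Dex against no Dex compares the same line with the fusion in the nucleus and in the cytosol, as the design describes it, and also cultures with and without a glucocorticoid. At day 0, 7 genes were higher with Dex and none lower, with 43.4% of all genes called, 27.3% higher and 16.1% lower. Dnmt3b was 1.98-fold higher, by 0.95 ± 0.03 (limma, adjusted p = 6.57e-15), Dnmt3a 1.66-fold and Dnmt1 1.32-fold. Tet3 missed the threshold with 0.1 ± 0.05 (adjusted p = 0.1), and passed with a pseudocount of 0.1, at 0.18 (adjusted p = 0.0367). This comparison uses the no Dex libraries that stand apart, and after rescaling 7 were still higher and none lower, while 62.9% of all calls were higher before and 48.2% after. Dividing cell markers moved alike, with 8 of 10 higher and 1 lower, summing to between 1621 and 1624.5 FPKM with Dex and 1424.1 and 1438.3 without, and their part was not tested.

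At day 2, 5 genes passed in Dex against no Dex, with 44.3% of all genes called, 12.7% higher and 31.5% lower. Dnmt3b was higher with Dex by 0.27 ± 0.03, or 1.21-fold (limma, adjusted p = 6.86e-08). Tet1 was lower by 0.75 ± 0.08, or 1.75-fold (adjusted p = 2.67e-07), Tet3 by 0.38 ± 0.05 and Tet2 by 0.32 ± 0.1. Without no Dex replicate 1 Tet2 lost its call with −0.24 (adjusted p = 0.121). Dnmt1 was lower by 0.12 ± 0.02 and its difference was −0.0024 after rescaling (adjusted p = 0.953), which also turned Uhrf1 from −0.04 ± 0.02 to 0.08 (adjusted p = 0.012). Among all calls 28.7% were higher with Dex, and 50.1% after rescaling. Of 8 pluripotency markers 6 were lower with Dex and none higher. Their summed FPKM was 1875.8 to 1920.3 with Dex and 1970 to 1971 without. These sums are not rescaled, and the scaling factors were 0.926 and 0.929 with Dex and 1.004 and 1.006 without. Nanog was at 16.73 and 16.93 FPKM with Dex and 31.65 and 31.75 without, and the part of pluripotent cells in the Tet differences was not tested.

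At day 4, 6 genes passed in Dex against no Dex, with 40.2% of all genes called, 18.3% higher and 21.9% lower. Dnmt3l was higher by 0.53 ± 0.06, or 1.49-fold (limma, adjusted p = 9.04e-07), Uhrf1 by 0.21 ± 0.02 and Dnmt1 by 0.15 ± 0.02. Dnmt3b was lower by 0.26 ± 0.03 and Tet1 by 0.7 ± 0.08, or 1.74-fold. Dnmt3a was higher by 0.14 ± 0.05, and lost that call without no Dex replicate 1 (0.11, adjusted p = 0.213), without no Dex replicate 2 (0.16, adjusted p = 0.0543) and without Dex replicate 1 (0.09, adjusted p = 0.302). Tet2, with 0.16 ± 0.1 (adjusted p = 0.197), passed without Dex replicate 1 (0.3, adjusted p = 0.036). At day 6, 5 genes passed, with 42.7% of all genes called, 23.8% higher and 19% lower. Dnmt3l was 1.86-fold higher with Dex, by 0.74 ± 0.06 (limma, adjusted p = 7.7e-09), and was the only member higher. Dnmt3b was lower by 0.19 ± 0.03 and Uhrf1 by 0.1 ± 0.02. Dnmt3a was lower by 0.17 ± 0.05, with −0.12 without no Dex replicate 1 (adjusted p = 0.137) and −0.07 without Dex replicate 2 (adjusted p = 0.312). Tet1 was lower by 0.23 ± 0.08, with −0.14 without no Dex replicate 2 (adjusted p = 0.246) and −0.19 without Dex replicate 1 (adjusted p = 0.138).

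Dex cultures were also set against WT, with the WT libraries shared with the KO comparison. At day 0, 7 genes were lower, with 49.8% of all genes called, 19% higher and 30.8% lower, and Dnmt3l missed the threshold with −0.02 ± 0.06 (limma, adjusted p = 0.875) and was 0.06 after rescaling. Tet1 was 2.63-fold lower, by 1.35 ± 0.08 (adjusted p = 5.89e-11). Dnmt3a was lower by 0.18 ± 0.05, with −0.15 without Dex replicate 1 (adjusted p = 0.0666) and −0.11 after rescaling (adjusted p = 0.0926). Among all calls 38.2% were higher, and 49.2% after rescaling. At day 2, 7 genes were lower, with 29.4% of all genes called, 12.2% higher and 17.2% lower. Dnmt3l was 1.84-fold lower, Dnmt3a 1.41-fold and Dnmt3b 1.1-fold. Tet1 was lower by 0.3 ± 0.08, with −0.26 without Dex replicate 2 (adjusted p = 0.0607).

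At day 4 in Dex against WT, 5 genes were lower and 2 higher, with 44.7% of all genes called. Among all calls 57.3% were higher, and 49.4% after rescaling. Dnmt3l was 2.86-fold and Dnmt3b 2.48-fold lower, by 1.46 ± 0.06 and 1.31 ± 0.03 (limma, adjusted p = 4.81e-13 and 7.42e-18), and Dnmt3a 1.61-fold. Tet3 and Tet2 were higher by 0.36 ± 0.05 and 0.41 ± 0.1. Dnmt1 was lower by 0.06 ± 0.02, with −0.04 without WT replicate 2 (adjusted p = 0.261), −0.06 without Dex replicate 1 (adjusted p = 0.0899) and −0.05 without Dex replicate 2 (adjusted p = 0.163). Uhrf1 was lower by 0.09 ± 0.02, with −0.08 without WT replicate 2 (adjusted p = 0.0509) and −0.07 without Dex replicate 1 (adjusted p = 0.0639). In a fit of the compared groups alone, 4 of the 7 kept an adjusted p under 0.05. At day 6, 5 genes were lower and none higher, with 61.4% of all genes called, 29.2% higher and 32.2% lower. These were the Dnmt genes and Uhrf1, from 1.37-fold for Uhrf1 and 1.45-fold for Dnmt1 to 3.09-fold for Dnmt3b and 5.21-fold for Dnmt3l. The Tet genes missed the threshold, with −0.12 ± 0.08 for Tet1, 0.01 ± 0.1 for Tet2 and 0.1 ± 0.05 for Tet3 (limma, adjusted p = 0.176, 0.941 and 0.0655). Tet3 passed after rescaling, with 0.13 (adjusted p = 0.0193). Extraembryonic endoderm markers were lower in Dex cultures as in KO, all 7 of them at day 6, where they summed to 11.9 FPKM in both Dex libraries against 69.7 to 70 in WT.

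Between the first and last day most members changed in every culture, as did most genes. Comparing day 6 with day 0, all 8 were called in WT, KO, no Dex and Dex cultures, where 78.1%, 80.4%, 81.9% and 80.4% of all tested genes were called. Tet3 alone rose in WT, KO and Dex cultures and the other 7 fell. Without Dex, Dnmt1 rose too, by 0.3 ± 0.02, but by 0.03 after rescaling (limma, adjusted p = 0.261). The no Dex libraries of day 0 are those that stand apart in composition, and their part in this was not tested. The median of all genes from day 0 to day 6 without Dex was 0.17, and −0.03 after rescaling. The WT fall of Dnmt1 was small, −0.06 ± 0.02, and lost its call without WT day 0 replicate 2 (−0.03, adjusted p = 0.219) and without WT day 6 replicate 2 (−0.06, adjusted p = 0.0567).

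The day 0 to day 2 step held the opposite movements of Dnmt3b and Tet2. Of the 8 genes 7 were called in WT, 8 in KO, 7 in no Dex and 7 in Dex cultures, with 63.4%, 65.6%, 67.9% and 60.6% of all genes called. Dnmt3b and Tet3 rose and Tet2 and Uhrf1 fell in all 4. From day 2 to day 4 the numbers called were 6, 7, 8 and 6, with 59.9%, 64.2%, 60.8% and 66.7% of all genes called. Dnmt3a, Dnmt3b, Dnmt3l and Tet1 fell and Tet3 rose in all 4 cultures. Dnmt1 with Dex was higher by 0.1 ± 0.02, and turned to −0.05 after rescaling (limma, adjusted p = 0.0458), where 61.3% of all calls were higher before and 47.8% after. Tet2 without Dex fell by 0.27 ± 0.1, and lost its call without day 2 replicate 1 (−0.18, adjusted p = 0.191), day 4 replicate 1 (−0.28, adjusted p = 0.0576) or day 4 replicate 2 (−0.26, adjusted p = 0.0767). With Dex Tet2 had 0.22 ± 0.1 (adjusted p = 0.0543), and passed without day 4 replicate 1 (0.35, adjusted p = 0.00729).

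From day 4 to day 6, 8 genes were called in WT, 8 in KO, 7 in no Dex and 7 in Dex cultures, with 66.7%, 65.3%, 67.9% and 65.1% of all genes called. Tet3 and Tet2 rose and Dnmt3b, Dnmt3l and Tet1 fell in all 4 cultures. Uhrf1 rose in WT by 0.24 ± 0.02, in KO by 0.12 ± 0.02 and without Dex by 0.19 ± 0.02, and fell with Dex by 0.11 ± 0.02. Dnmt3a fell in WT by 0.29 ± 0.05. In KO it was higher by 0.14 ± 0.05, a call lost without day 4 replicate 2 (0.11, adjusted p = 0.128), day 6 replicate 1 (0.15, adjusted p = 0.0534) or day 6 replicate 2 (0.14, adjusted p = 0.0705). Among all WT calls at this step 62.5% were higher, and 51.1% after rescaling. For no Dex from day 0 to day 2 these shares were 61% and 46.8%, and from day 0 to day 6 they were 58.6% and 48.5%.

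Partners that guide or stabilise the enzymes were taken as a list of 16, of which 15 were tested. In KO against WT 4 were higher and 7 lower at day 0, 8 and 6 on day 2, 7 and 5 on day 4, and 4 and 6 on day 6. Over all tested genes 18.4% were higher and 29.8% lower on day 0, 37.5% and 21.3% on day 2, 36.5% and 24% on day 4, and 30.9% and 34.2% on day 6, which is the background for this list and the others below. Hells, a chromatin remodeller needed for normal DNA methylation, was lower on all 4 days, by 0.44, 0.78, 0.33 and 1.03 in order of the days, each ± 0.06 (limma, adjusted p = 4e-11 at day 6). It stood at 45.11 ± 0.35 FPKM (SD, n = 2) in WT and 21.64 ± 0.54 in KO at day 6. Dppa3, known to hold Uhrf1 off chromatin, was 3.07-fold higher in KO at day 0, 2.98-fold at day 2 and 1.05 ± 0.11 higher on the log2 scale at day 4. It missed the threshold at day 6 with −0.07 ± 0.11 (limma, adjusted p = 0.574). Dppa3 stood at 5.65 ± 0.34 FPKM in WT and 17.34 ± 1.25 in KO stem cells, and with Dex at 30.56 ± 0.18. It fell with Dex against no Dex at day 2 by 0.76 ± 0.11 (limma, adjusted p = 1.18e-05).

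Cxxc4, a CXXC protein known to lower Tet2 protein, was higher in KO by 1.47 ± 0.1 at day 4 and 1.61 ± 0.1 at day 6, where it had 25.14 ± 0.13 FPKM against 7.58 ± 0.01 in WT. Uhrf2, the Uhrf1 paralog, went from 15.09 ± 1.51 FPKM in WT at day 0 to 38.78 ± 3.62 at day 6, and from 18.49 ± 0.57 to 38.98 ± 1.7 in KO. Ogt, a sugar transferase that binds Tet proteins, was lower in KO stem cells by 0.64 ± 0.03. With Dex it was higher at day 0 by 0.53 ± 0.03, against the no Dex libraries that stand apart. Its mean in KO was 19.09, 30.01 and 30.7 FPKM on days 2, 4 and 6, against 21.34, 25.48 and 43.03 in WT. With Dex the Ogt mean was 18.78, 30.88 and 25.06 FPKM on those days, against 25.41, 27.26 and 33.47 without. Prdm14, a repressor of Dnmt3b in naive cells, fell from 6.94 ± 1.07 FPKM in WT at day 0 to 0.4 ± 0.01 at day 2. It was 0.54 ± 0.08 higher in KO than in WT at day 2. Trdmt1, an RNA methyltransferase once classed as Dnmt2, did not pass in KO against WT on any day, with differences from −0.32 ± 0.2 to 0.01 ± 0.2.

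**Figure D4:**
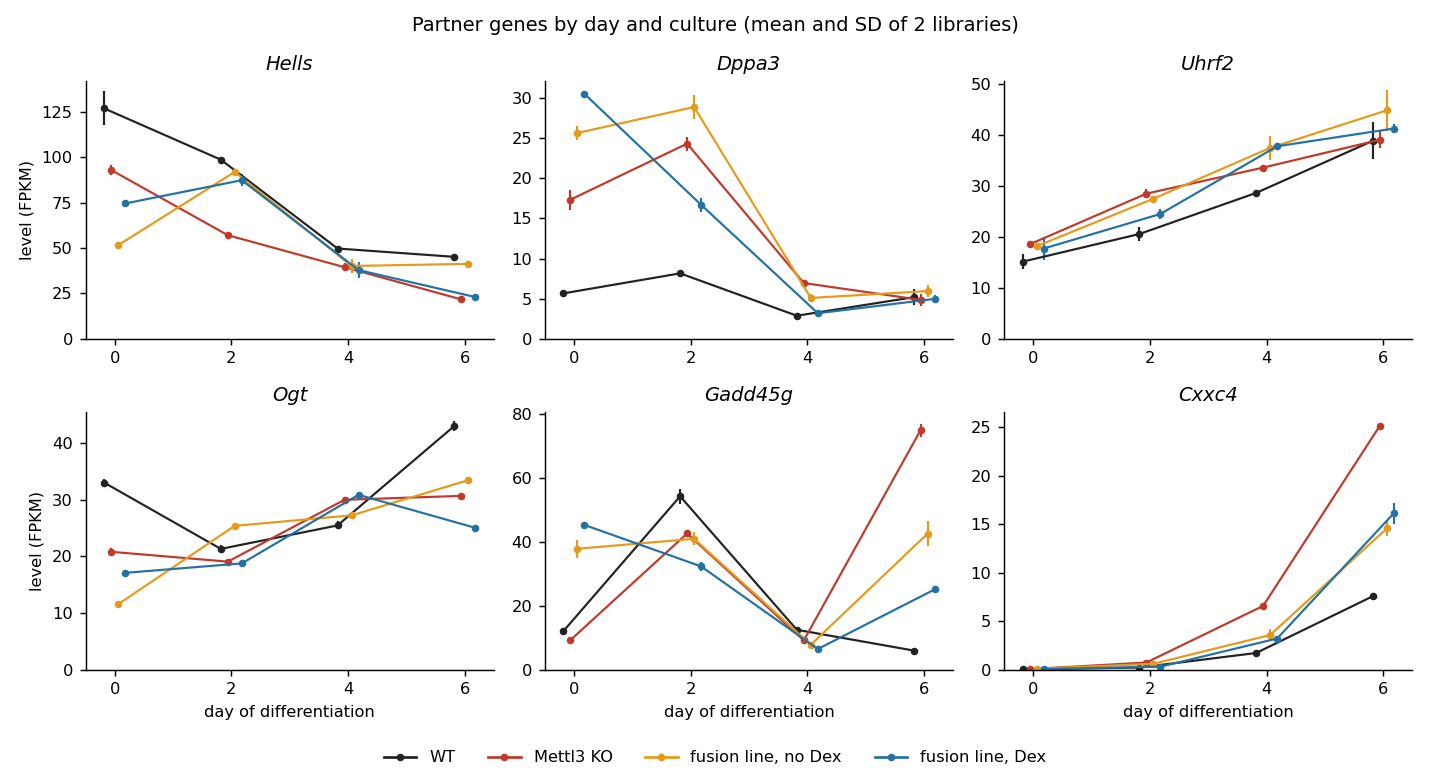
FPKM of 6 partner genes against day of differentiation, as mean and SD of 2 libraries in each culture. Hells is below WT in KO on every day, Dppa3 is 3.07-fold higher in KO stem cells, and Gadd45g and Cxxc4 are highest in KO at day 6.

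The list of methyl-CpG readers, 8 genes of the MBD and related zinc finger families, was mixed in KO against WT, with 2 higher and 3 lower on day 0, 3 and 1 on day 2, 4 and 2 on day 4, and 3 and 3 on day 6. The demethylation partners, 10 tested of 11, split 2 higher and 5 lower, 7 and 3, 4 and 5, and 5 and 4 on the 4 days. Gadd45g, a stress gene linked to repair-based demethylation, stood at 74.9 ± 2.08 FPKM in KO at day 6 and 6.02 ± 0.04 in WT, a difference of 3.43 ± 0.07 (limma, adjusted p = 1.7e-18). Gadd45b was lower in KO there by 1.11 ± 0.08 and higher with Dex than without by 1.58 ± 0.08. Of the methyl donor list, genes of the folate and S-adenosylmethionine cycles including ones that consume S-adenosylmethionine, 10 of 11 were tested, and 1 was higher and 7 lower in KO at day 6.

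Germline genes known to be kept silent by promoter methylation were taken as a list of 14, of which 12 were tested. They fell with differentiation in all 4 cultures: from day 0 to day 6 all 12 were called lower in each. Their summed FPKM went from between 223.9 and 225.6 to between 20.8 and 22.5 in WT, and from between 258.2 and 260 to 5.6 in KO. Rpl10l alone gave 91.4 ± 1.02 FPKM of the day 0 sum in WT and 134.46 ± 1.03 in KO, so the sum does not describe most of the list. At day 6 all 12 were lower in KO than in WT, with a median of −0.63 against −0.03 over all genes, and all 12 were lower with Dex than in WT, with a median of −0.62 against −0.02. Over all genes 34.2% were lower in KO and 32.2% lower with Dex than in WT on that day. Other markers moved the same way: 7 of 8 pluripotency markers were lower in KO and 8 of 8 with Dex, and all 7 extraembryonic endoderm markers were lower in both. The pluripotency sum was 308 to 310.9 FPKM in WT, 241.6 to 244.2 in KO and 203.8 to 211 with Dex, and the part of these cells in the germline result was not tested. At day 0, 3 were higher and 7 lower in KO, 4 and 5 at day 2, and 2 and 5 at day 4. Dazl, an RNA-binding protein of germ cells, stood at 11.86 ± 0.24 FPKM in WT and 5.7 ± 0.64 in KO stem cells. Tex19.1, known to be switched on when methylation is lost, fell from 31.37 ± 0.69 to 2.5 ± 0.51 FPKM in WT and from 42.8 ± 1.62 to 0.73 ± 0.06 in KO.

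The members most like each other over the 16 group means were Dnmt3a and Dnmt3l, with Pearson r = 0.94, and the most opposed were Dnmt3l and Tet3, with r = −0.9. Tet1 and Tet3 had r = −0.81. For each member the 3 genes with the highest correlation were found among 13464 genes with a mean of at least 1 FPKM. Dnmt3l was most like Fmr1nb (r = 0.984), Exosc10 (0.983) and Pnma5 (0.982), and Dnmt3a like Mael (0.975), Gnpda1 (0.969) and Tdrd12 (0.968). Dnmt3b was most like Esrp1 (0.976), Rapgef5 (0.968) and Map7d3 (0.964). Tet1 came closest to Bicral (0.973), Msh6 (0.969) and Zfp809 (0.968), Tet2 to Mob3c (0.989), Tm7sf3 (0.986) and Zfp607b (0.98), and Tet3 to Lrrc41 (0.99), Prmt2 (0.989) and Bend7 (0.988). Dnmt1 was closest to 2700049A03Rik (0.966), Braf (0.955) and Gmcl1 (0.94), and Uhrf1 to Tmem41b (0.96), Pacsin2 (0.956) and Trim24 (0.955). These values rank likeness over group means that share lines, days and libraries, and no test was made of them.

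In the order of the 16 group means the libraries of most neighbours did not overlap, though a gap could be smaller than the difference between duplicates. The share over all tested genes was not computed, so these counts do not set the 8 genes apart. Dnmt3b and Dnmt3l each had 1 pair of neighbours with overlapping libraries, Tet3 had 2, Dnmt1 3, and Dnmt3a, Tet1 and Uhrf1 4 each. Tet2 had 6, the most of the 8, all among groups with mean levels under 3 FPKM. Positions on GRCm38 place the genes on different chromosomes except for Dnmt3l and Tet1, which lie on chromosome 10 at 78041947 to 78063622 and at 62804570 to 62908996. Dnmt3b is on chromosome 2 at 153649450 to 153687730, Dnmt3a on chromosome 12 at 3806007 to 3914443, and Dnmt1 on chromosome 9 at 20907209 to 20959888. Uhrf1 is on chromosome 17 at 56303321 to 56323486, Tet2 on chromosome 3 at 133463679 to 133545139, and Tet3 on chromosome 6 at 83362373 to 83459084.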

How the data were processed

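The authors deposited 1 table of FPKM, with a row per gene and a column per library, given to 2 decimals. STAR, Cuffdiff and mm10 are named in the submitters' processing notes, without versions. Counting settings and strandedness are not given in the sources used here. Libraries were poly(A)-selected and read as paired ends, per the labels' protocols.

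limma 3.58.1 (R 4.3.3) was fitted to log2(FPKM + 1) over all 32 libraries with a mean for each of the 16 groups (16 residual degrees of freedom, mean-variance trend). A log2 change on this scale understates changes of low genes. Genes with at least 1 FPKM in at least 2 libraries were tested (16276), p-values were adjusted by Benjamini-Hochberg over all of them, two-sided, and a gene was called under 0.05. The 36 comparisons include 4 interaction terms. Alternatives were a pseudocount of 0.1, no filter, a stricter filter (mean FPKM of 5 or more), median-of-ratios rescaling, fits of only the groups compared, a replicate block, and leaving out each library in a fit of the other 31. The method was tested on simulated data.

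Low FPKM values come in steps of 1 fragment, and these gave the depth estimates at an effective transcript length (fragments of 280 to 300 bp). Between 83.1% and 91.2% of low values fell no further than 0.2 from a whole number of fragments, where chance gives 40.0%. Motifs were counted in GENCODE M21 transcripts and RefSeq promoters. Figures were drawn with matplotlib 3.10.9 in Python 3.11.15.

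Named genes were the 8 members, Mettl3, Dppa3, Hells, Uhrf2, Prdm14, Trdmt1, at most 3 called genes of each list with the largest changes per comparison, and the 3 genes most like each member. Marker genes and genes overlapping a member were named beside this rule, after their values were seen. The members and lists were chosen with earlier results of these data known. Some genes of the lists are not reported singly here.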

Additional observations from a re-analysis of the deposited data

Results flagged for a closer look

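For 30 of 32 results the effect of a culture differed between days in a test of that difference itself (limma interaction terms, adjusted p under 0.05 over all tested genes). Such differences were common: 48.9% of all genes were called for KO against WT between days 0 and 2, 56.9% between days 0 and 6, 45% for Dex against no Dex between days 0 and 2, and 48.7% between days 0 and 6. Values are changes of the log2 difference.

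From day 0 to day 2 the KO minus WT difference moved up for Tet2 by 1.03, Tet1 by 0.72, Tet3 by 0.35 and Dnmt1 by 0.15. It moved by −0.54 for Dnmt3a, −0.27 for Dnmt3l, −0.16 for Dnmt3b and −0.09 for Uhrf1. The Dnmt1 value was 0.0025 after rescaling (adjusted p = 0.962), and 73% of all calls were higher before rescaling and 55.4% after. Uhrf1 lost its call without WT day 0 replicate 1 (−0.06), WT day 2 replicate 1 (−0.08), KO day 0 replicate 1 (−0.07) or KO day 2 replicate 2 (−0.08). From day 0 to day 6 the difference moved by 1.04 for Tet3, 1.02 for Tet1 and 0.47 for Tet2, and by −1.87 for Dnmt3l, −0.21 for Dnmt3b, −0.2 for Uhrf1 and −0.15 for Dnmt1. Dnmt3a was not called, with −0.02 ± 0.07.

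From day 0 to day 2 the Dex minus no Dex difference moved down for all 8 genes: −1.12 for Tet1, −0.79 for Tet2, −0.79 for Dnmt3a, −0.68 for Dnmt3b, −0.5 for Dnmt1, −0.47 for Tet3, −0.38 for Dnmt3l and −0.37 for Uhrf1. The Dnmt3l value was −0.18 after rescaling (adjusted p = 0.0866), and 28% of all calls were higher before rescaling and 51.8% after, the median of all genes moving from −0.12 to 0. From day 0 to day 6 it moved by −1.14 for Dnmt3b, −0.89 for Dnmt3a, −0.6 for Tet1, −0.43 for Uhrf1, −0.42 for Tet2 and −0.41 for Dnmt1, and by 0.33 for Dnmt3l. Tet2 lost its call without Dex day 6 replicate 1, with −0.23 (adjusted p = 0.122). Tet3 was not called, with −0.13 ± 0.06. These differences start from the no Dex libraries of day 0, which stand apart in composition, and the part of that composition was not tested.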

How the results depend on the processing

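Across the 36 comparisons the number of the 8 genes called stayed within 1.5 times under a pseudocount of 0.1, no filter, rescaling, the replicate block and each left-out library. It changed further in 3 cases. For Dex against no Dex at day 2 it went from 5 to 3 under the filter of mean FPKM 5 or more, which leaves 9412 genes and drops Tet2 and Tet3. In fits of the compared groups alone, which have fewer libraries, it went from 5 to 3 at day 6 and, for Dex against WT at day 4, from 7 to 4. The replicate block changed no call in 288 gene results and 36 counts, 8 being called in KO against WT at day 0 with and without it. Duplicate differences of 120 pairs of groups correlated between −0.09 and 0.13, so the numbers do not pair the samples.

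Gene by gene, rescaling turned 9 directions and left-out libraries 10, and the cause was not tested. After rescaling, Dnmt3a was 0.0039 at day 4 (no Dex against KO) and 0.05 at day 2 (Dex against no Dex), where Uhrf1 was 0.08. Dnmt3l was 0.06 in Dex against WT at day 0, Tet2 0.01 in KO against WT at day 6, and Tet1 −0.06 in no Dex between days 0 and 2. Dnmt1 between days 2 and 4 was −0.07 in WT (−0.00044 to 0.03 with libraries left out, lowest without WT day 4 replicate 2), −0.04 in KO and −0.05 with Dex. Tet2 at day 6 in KO against WT was 0.05 without WT replicate 2 and 0.02 without KO replicate 1. In no Dex against KO it was 0.0033 at day 4 without KO replicate 1, and at day 6 0.01 without KO replicate 2 or no Dex replicate 2. For Dex at day 6 without Dex replicate 2 it was −0.14 against no Dex and −0.18 against WT, where it was −0.05 without WT replicate 1, and without Dex replicate 1 it was 0.23 and 0.2. Tet1 in Dex against WT at day 4 was 0.00039 without WT replicate 2 and −0.1 without WT replicate 1. Depth limits Dnmt3l in late KO organoids most, whose lowest value rests on about 180 fragments, then Tet2 and Tet3 with about 277.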
